A study of Mus musculus with 36 samples.

Results

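Immunoglobulin variable (V) region genes were taken as every gene whose symbol begins with Ighv, Igkv or Iglv, the V genes of the heavy, kappa and lambda chains. There were 179 such genes among the 18691 genes listed in either of a female and a male count table. The female table held 160 of them (87 heavy, 70 kappa and 3 lambda) among 18116 genes, the male table held 173 (93, 78 and 2) among 18291, and 154 stood in both. All 179 matched a gene of the GENCODE M21 annotation (build GRCm38), which places the heavy V genes on chromosome 12, the kappa V genes on chromosome 6 and the lambda V genes on chromosome 16.

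RNA of the whole left lung was sequenced from 36 wild-type C57BL/6 mice, with 3 females and 3 males per treatment and 6 treatments, and the estimated reads per gene were deposited as counts. The groups received saline (control), MC252 crude oil, the dispersants Corexit 9500 or Corexit 9527, or oil with either dispersant (9500+oil, 9527+oil). All mice were 8 weeks old at the start and were dosed on 3 occasions (days 0, 7 and 13), the treated mice with 50 µL of a fraction at a concentration of 0.1 and the control mice with saline as the vehicle, and lungs were taken on day 14. The labels call the material a water-accommodated fraction and the paper a saline-accommodated fraction given by oropharyngeal aspiration. Each mouse contributed 1 library, and mouse numbers run from 1 to 18 within a sex.

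Each B cell joins 1 heavy V gene and 1 kappa or lambda V gene to short joining segments, and its descendants carry the same pair. The mRNA of a lung therefore holds many V genes at a low level when its B cells and plasma cells are diverse, and a few at a high level when one clone makes much antibody mRNA. In whole tissue, fewer cells of a type and less RNA per cell cannot be told apart.

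The genes that a single mouse held far above the others are described below, and the ends of 8 of them are printed here because this stretch shows how the copies differ just before the joining segment. The lines give the last 90 bases of the coding part (for Igkv1-115, which is annotated as a pseudogene, of the transcript), 5′ to 3′ on the coding strand, from GENCODE M21. Capitals mark the codon of the conserved cysteine that opens the third complementarity-determining region, the most variable loop of an antibody. A cysteine codon (TGT or TGC, read in frame on the coding strand) lay within the last 45 bases of 211 of the 213 annotated V genes with a coding part (99.1%).
Igkv15-103: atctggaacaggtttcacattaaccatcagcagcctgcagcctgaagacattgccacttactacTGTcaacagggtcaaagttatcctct
Ighv7-1: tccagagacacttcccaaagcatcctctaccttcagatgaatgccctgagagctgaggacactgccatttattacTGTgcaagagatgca
Ighv12-3: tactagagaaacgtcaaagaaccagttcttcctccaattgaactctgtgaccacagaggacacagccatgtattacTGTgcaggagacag
Igkv1-115: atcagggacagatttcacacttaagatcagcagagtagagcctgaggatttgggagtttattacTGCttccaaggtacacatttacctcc
Ighv11-2: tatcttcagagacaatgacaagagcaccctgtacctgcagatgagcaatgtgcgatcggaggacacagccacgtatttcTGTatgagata
Igkv14-126: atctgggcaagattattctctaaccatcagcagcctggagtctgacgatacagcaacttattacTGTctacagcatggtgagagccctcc
Igkv4-91: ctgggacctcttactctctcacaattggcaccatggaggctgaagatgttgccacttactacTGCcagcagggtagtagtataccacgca
Igkv1-110: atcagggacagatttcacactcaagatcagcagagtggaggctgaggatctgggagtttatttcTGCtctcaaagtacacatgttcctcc

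Igkv15-103 lies on the forward strand at chr6:68437440-68437925, Ighv7-1 on the reverse strand at chr12:113896408-113896946 and Ighv12-3 on the reverse strand at chr12:114366521-114366954. Many V genes are close copies, so reads could be shared between them. The coding part of a listed V gene was 94.865% identical to that of its closest relative in the median, and 82 V genes had a relative at 95% identity or more. A median of 53.89% of the 31-base words of a V transcript occurred in no other transcript. For Igkv15-103 and Ighv12-3 this was 100% and 97.83%. Igkv1-110 had 36.39% and differed from Igkv1-117 at 10 positions, so its level is less certain.

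The V genes took few reads. They held between 172 and 3786 counts per mouse, of 17501180 to 30011557 counts in all. Of the V genes listed, 61 in the male table had a count in all 18 mice. Of those for female mice, 2 had one in all 18 mice, 16 in the 17 mice without saline mouse 3 and 73 in the 13 mice without the 5 libraries described next. The unit of a level is CPM, which scales a count to a library of 1000000 after TMM normalization. The median V gene had a mean of 0.554 CPM per kb of transcript in male mice and 0.624 in female mice (0.604 in those 13 mice).

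Libraries of 5 female mice stood apart from the rest. Mitochondrial genes took 45.09% of the counts in saline mouse 3, 38.38% in 9527 mouse 11, 22.56% in oil mouse 6 and 20.67% in 9500+oil mouse 14, against 5.27% to 11.34% in all other mice. 9500 mouse 7 had no such share. These 5 libraries had a count for 12352 to 16308 genes, and all others for 16646 or more. The number of V genes detected (at least 1 count) was lower in these 5 mice. It was 9 in saline mouse 3, 38 in 9527 mouse 11, 59 in 9500 mouse 7, 100 in 9500+oil mouse 14 and 108 in oil mouse 6. The other 13 female mice had 109 to 135, and the 18 male mice had 108 to 147. The summed levels, tests, medians and usage of the V genes in female mice are also given without these 5 libraries, which were set apart after the data were seen. Tests of the other gene lists are given with these libraries only.

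**Figure D1:**
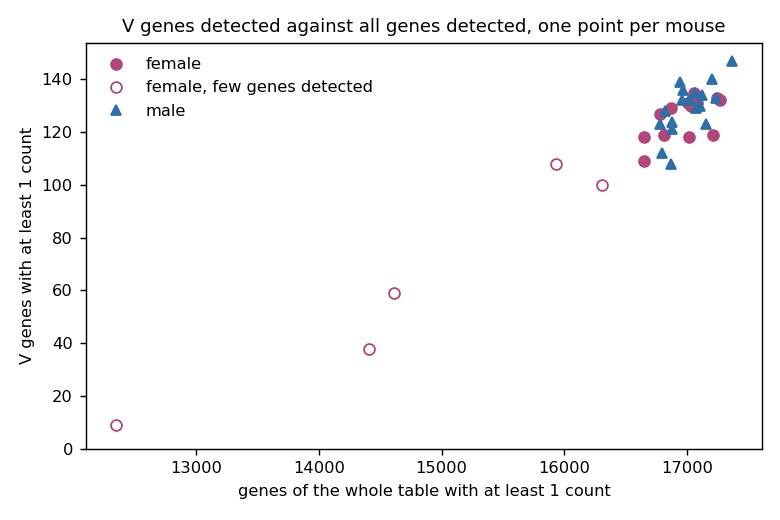
Each point is 1 mouse, with the number of genes of its table that had at least 1 count on the x axis and the number of V genes that had at least 1 count on the y axis. The 5 open circles are the female libraries with 12352 to 16308 genes detected, and saline mouse 3, with 9 V genes, is the lowest of them.

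Markers of lung and of B cells were present throughout. Cd79a, a signalling chain of the B cell receptor, ran from 39.52 to 127.7 CPM in male mice and from 6.64 to 184.24 CPM in female mice. The plasma cell receptor gene Tnfrsf17 was at or below 0.41 CPM in every mouse. Igj, another plasma cell gene, had a higher median than that in each sex, as given below. Glycam1, a gene of lymph node high endothelium, reached at most 0.46 CPM in female mice and is not listed for male mice.

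Kappa V genes made up the largest part of the V counts. Their share was 56.0% ± 3.2 (SD, n = 18) in male mice, that of heavy V genes 39.1% ± 2.4 and that of lambda V genes 4.87% ± 1.57. In the 13 female mice without the doubted libraries the shares were 56.6% ± 3.9, 38.4% ± 3.0 and 5.01% ± 2.75. The Ighv1 family, with 45 genes listed for male mice, took 53.3% ± 8.4 of the heavy V counts there and 49.3% ± 6.6 in the 13 female mice. Among kappa V genes the Igkv6 family took 19.1% ± 4.2 and the Igkv1 family 15.7% ± 4.1 in male mice. In female mice the same families took 20.3% ± 4.5 and 16.4% ± 4.5.

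Per kb of transcript, the leading V genes were much alike in both tables. In male mice the mean level of Igkv15-103 was 7.27 CPM per kb, that of Igkv6-15 5.62, of Iglv1 5.62, of Igkv10-96 5.51 and of Igkv1-135 5.35. Igkv15-103 owes that place to 1 mouse, since its median over mice was 3.21 CPM per kb. In female mice Iglv1 led with 7.91 CPM per kb, before Igkv1-135 with 7.59, Igkv14-126 with 7.28, Igkv10-96 with 6.75 and Igkv6-15 with 6.28. Igkv6-23, Igkv5-43 and Igkv1-110 were among the 10 V genes with the highest mean CPM in both tables, Igkv1-117 and Ighv1-26 in the male and Igkv4-55 and Ighv3-6 in the female table. Over the 154 V genes of both tables, mean CPM per kb in female and male mice had a Pearson correlation of 0.877 on the log2 scale and a Spearman correlation of 0.871. In the 13 female mice without the doubted libraries Iglv1 led with 8.28 CPM per kb, before Igkv6-15 with 8.02 and Igkv1-135 with 7.91, and the correlations with male mice were 0.890 and 0.889. The correlations are across genes, which are not independent replicates, and the tables share transcript lengths and sequence copies.

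**Figure D2:**
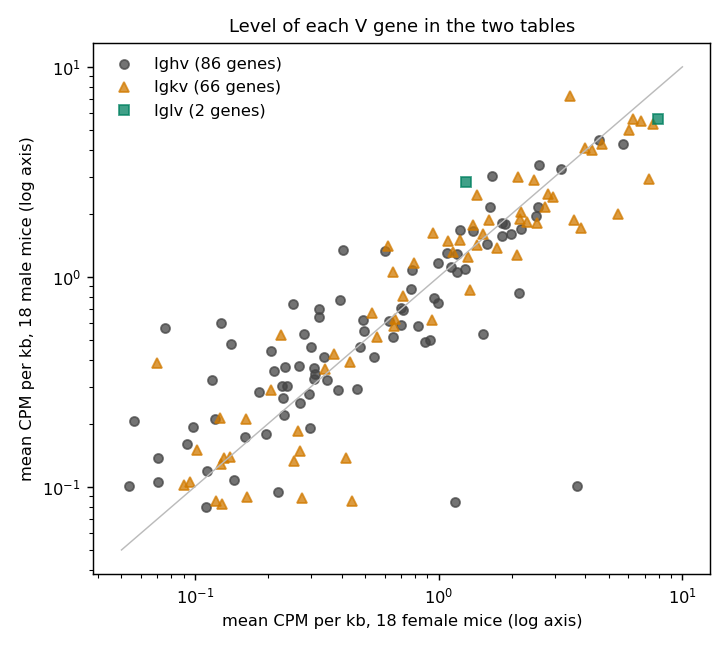
Each symbol is 1 of the 154 V genes listed in both tables, with its mean level in CPM per kb over 18 female mice on the x axis and over 18 male mice on the y axis, both log axes, and the line marks equal levels. Most genes lie near the line, with a Spearman correlation of 0.871, and Ighv3-4 and Ighv1-11 lie far below it.

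Usage also followed a pattern along the chromosome. The listed V genes of a chain were split into 3 parts of nearly equal number by distance from the joining segments. The middle part of the heavy chain took 41.7% ± 5.7 of the heavy V counts in male mice and 42.4% ± 4.2 in the 13 female mice. The 3 heavy parts overlapped between mice, with 29.4% to 52.8% for the middle part in male mice, 22.3% to 52.4% for the nearest and 18.2% to 44.9% for the farthest. For the kappa chain it was the middle part that took least, with 18.3% ± 3.3 in male and 21.2% ± 3.1 in female mice. In male mice this part ranged from 7.7% to 22.7%, below the farthest part, which ranged from 33.6% to 69.0%.

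The lambda chain has few V genes in this strain. Iglv1 had 31 to 73 counts in every male mouse. In female mice it ranged from 0 in saline mouse 3 to 243 in saline mouse 2. Iglv3 had 9 to 45 counts in male mice and 0 to 28 in female mice. Iglv2 is listed in the female table alone, where it had 20 counts in 9500 mouse 7, 9 in 9500+oil mouse 14, 3 in 9527 mouse 11, 1 in oil mouse 6 and 0 in the other 14. All 4 of these mice belong to the 5 libraries described above. The coding parts of Iglv1 and Iglv2 have 351 bases and differ at 11 positions. Their last 250 bases are shown (5′ to 3′, GENCODE M21), with the 7 differing bases in capitals. A read within this stretch that covers none of these positions fits both genes.
Iglv1: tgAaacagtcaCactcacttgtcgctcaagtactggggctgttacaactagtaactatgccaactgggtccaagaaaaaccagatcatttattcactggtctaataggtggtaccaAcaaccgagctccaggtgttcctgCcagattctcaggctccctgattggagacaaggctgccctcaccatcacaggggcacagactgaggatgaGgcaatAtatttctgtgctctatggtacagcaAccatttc
Iglv2: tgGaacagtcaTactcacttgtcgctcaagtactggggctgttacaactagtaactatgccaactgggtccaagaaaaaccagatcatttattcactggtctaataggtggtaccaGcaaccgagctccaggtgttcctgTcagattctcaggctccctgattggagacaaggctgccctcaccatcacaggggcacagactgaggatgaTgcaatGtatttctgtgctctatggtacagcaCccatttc

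Lambda V genes took 10.6% to 11.4% of the light chain V counts in the 3 male saline mice and 4.43% to 6.96% in the 3 male 9500 mice. It was 6.77% to 10.2% in oil mice, 5.54% to 9.57% in 9500+oil mice and 3.83% to 9.41% in 9527+oil mice. These 4 groups lay below the lowest saline mouse, whereas the male 9527 mice, with 4.63% to 12.7%, overlapped saline. In female mice no such separation was seen. Saline mice 1 and 2 had 5.08% and 16.2%, and mouse 3 had 0 lambda counts among its 172 V counts. The share was 5.32% to 16.8% in oil mice, 4.71% to 5.13% in 9500 mice, 6.41% to 10.2% in 9527 mice, 5.58% to 19.7% in 9500+oil mice and 4.28% to 13.1% in 9527+oil mice. The highest value of all, 19.7%, came from 9500+oil mouse 14, a doubted library, and the next, 16.8%, from oil mouse 4. These shares are a description and carry no test.

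Whether treatment changed the amount of V mRNA was examined first from the sum over all V genes. In male saline mice the summed V level was 83.6, 42.5 and 55.7 CPM. It was 69.4, 77.1 and 47.7 CPM in oil mice and 65.6, 73.0 and 84.8 CPM in 9500 mice. It was 71.3, 70.8 and 99.98 CPM in 9527 mice, 75.1, 90.5 and 61.9 CPM in 9500+oil mice and 81.5, 52.0 and 45.6 CPM in 9527+oil mice. Every male treated group overlapped the saline mice. The differences of mean log2 summed CPM from saline were 0.12 for oil, 0.34 for 9500, 0.45 for 9527, 0.36 for 9500+oil and -0.01 for 9527+oil, beside pooled SDs between mice of 0.37 to 0.47. Leaving out 1 mouse turned the sign for oil, with a range of -0.11 to 0.38, and for 9527+oil, with -0.26 to 0.25. The other 3 differences stayed above 0, from 0.12 to 0.60 for 9500, 0.22 to 0.71 for 9527 and 0.14 to 0.62 for 9500+oil.

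The female mice spread more widely. Saline mice held 123.4, 77.8 and 20.02 CPM, the last of them mouse 3. Oil mice held 81.5, 62.9 and 108.6 CPM and 9500 mice 91.8, 89.4 and 56.8 CPM. The 9527 mice held 113.0, 32.8 and 41.0 CPM, the 9500+oil mice 90.8, 63.7 and 77.2 CPM and the 9527+oil mice 91.5, 63.1 and 57.2 CPM. All 5 treated groups overlapped saline here too, with and without the 5 libraries. The differences of mean log2 summed CPM from saline were 0.51, 0.43, -0.11, 0.41 and 0.26 in the same order, with pooled SDs of 0.98 to 1.18. Saline mouse 3, the lowest value, weighs more in a mean of log2 values than in a plain mean, so these differences need not match the order of the plain means drawn as bars. It decided the sign of the differences above 0. Without it the 5 differences were -0.25, -0.34, -0.88, -0.36 and -0.50. Without the 4 libraries of high mitochondrial share they were -0.45, -0.34, -0.53, -0.23 and -0.50, and without all 5 doubted libraries -0.45, -0.46, -0.53, -0.23 and -0.50.

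**Figure D3:**
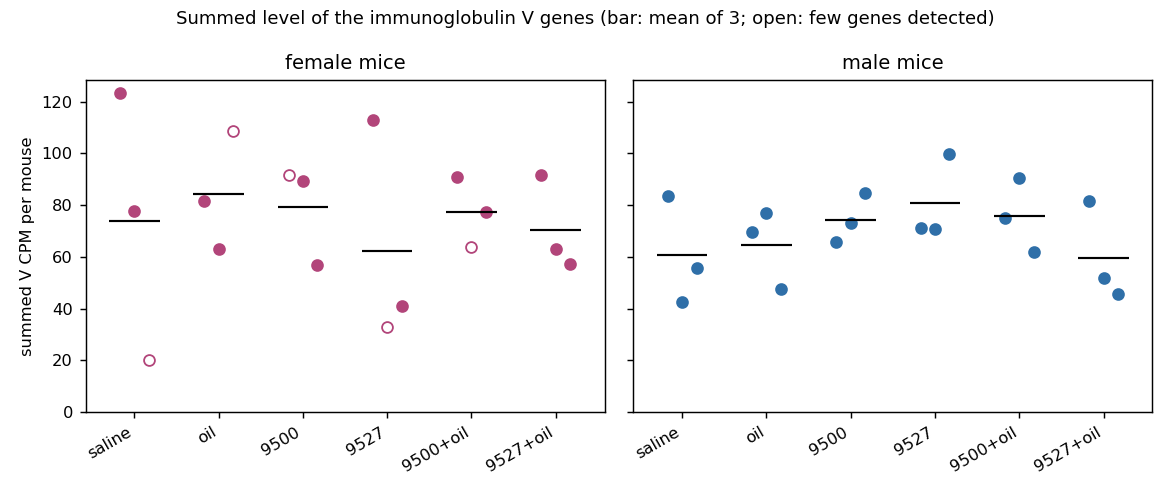
Each point is the summed V level of 1 mouse in CPM, female mice at the left and male mice at the right, by treatment group on the x axis. Bars are means of 3 mice, open circles are the 5 female libraries with few genes detected, and in each sex all treated groups overlap the saline mice.

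The number of V genes detected did not separate the groups either. Male saline mice had 132, 108 and 134, and the treated group with the highest mean, 9500, had 147, 140 and 130. The 9527 mice had 124, 123 and 121, within the range of saline. The effective number of V genes, which is the exponential of the Shannon entropy of their shares, ran from 56.0 to 87.6 in male saline mice. Over the treated male mice the range was from 39.9 in 9527 mouse 12 to 90.6 in 9500 mouse 7. In the 13 female mice it ran from 63.4 to 77.6, and in the other 5 from 8.03 to 51.0.

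For single V genes, each treatment was compared with saline within a sex by edgeR (quasi-likelihood), with the Benjamini-Hochberg adjustment over every gene in the fit. No V gene passed an adjusted p of 0.05 in the female comparisons, where 57 V genes were tested for oil, 53 for 9500, 59 for 9527, 55 for 9500+oil and 57 for 9527+oil. Among all genes the share called was 0% in each of these. At an unadjusted p under 0.05 there were 1, 1, 0, 0 and 1 V genes, where 0.108%, 0.364%, 0.267%, 0.155% and 1.1% of all genes had one. Without the 5 doubted libraries 0 of 64, 65, 73, 67 and 71 V genes passed in the same order (0.0132% of all genes for 9527+oil and 0% for the others). At an unadjusted p under 0.05 there were then 2, 6, 2, 3 and 5 V genes. Among all genes there were 144 of 15012, 1694 of 15045, 762 of 15297, 185 of 14963 and 1865 of 15147. In male mice no V gene passed among 47 tested for oil (0.00671% of all genes called), 58 for 9500 (0.00662%), 50 for 9527 (0.114%), 45 for 9500+oil (0%) and 47 for 9527+oil (0.00669%). The unadjusted counts were 0, 2, 1, 0 and 2, beside 8.21%, 6.35%, 13.7%, 9.22% and 5.54% of all genes. DESeq2 called no V gene in these 10 comparisons, but it gave no adjusted p for 42 of the 45 V genes in male 9500+oil mice and for 1 in female 9527+oil mice, so these could not be called. Of all genes DESeq2 called 1.25% for oil, 0.324% for 9500, 3.93% for 9527, 0.343% for 9500+oil and 0.167% for 9527+oil in male mice. In female mice these shares were 0%, 0.0135%, 0.04%, 0% and 0.0471%.

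The V genes tested in a comparison were also summarised by their median log2 fold change. In male mice it was 0.11, 0.20, 0.15, 0.31 and -0.04 for oil, 9500, 9527, 9500+oil and 9527+oil, where all genes had medians of -0.01, -0.01, -0.01, 0.00 and 0.00. In female mice the V medians were -0.02, 0.02, -0.48, 0.04 and 0.07, beside -0.01, 0.09, 0.03, 0.04 and 0.09 over all genes. In the male 9500+oil comparison 34 V genes were higher and 11 lower. In the female 9527 comparison 16 were higher and 43 lower, with the libraries of saline mouse 3 and 9527 mouse 11 in it. Without the 5 doubted libraries the female V medians were -0.42, -0.48, -0.60, -0.18 and -0.33, all below 0, where those of all genes lay between -0.01 and 0.00. The sign of the female median for 9500, 9500+oil and 9527+oil thus turned with these libraries.

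With both sexes in 1 fit and sex as a covariate, 64 to 69 V genes were tested per treatment and none passed. The share of all genes called was 0.0326% for 9527 and 0% for the other treatments, and 1, 1, 2, 0 and 0 V genes had an unadjusted p under 0.05 (0.442%, 2.3%, 2.86%, 0.418% and 2.99% of all genes). The smallest was that of Ighv1-54 under 9527, with a log2 fold change of 2.78 ± 0.89 (SE) and an adjusted p of 0.899 (edgeR). Tests of the interaction of sex and treatment called no V gene among 64 to 69 and 0% of all genes, and 1, 2, 1, 1 and 1 V genes had an unadjusted p under 0.05 (1.65%, 0.726%, 0.352%, 0.509% and 2.39% of all genes). A test of any difference among the 6 groups called none of 82 V genes in female mice (0.0129% of all genes) and none of 69 in male mice (0.135%). At an unadjusted p under 0.05 these counts were 0 and 4, beside 1.35% and 10.4% of all genes. Without the 5 doubted libraries none of the fits that hold female mice called a V gene, where 0% to 2.13% of all genes were called. At an unadjusted p under 0.05 the fits over both sexes then had 0, 9, 4, 2 and 4 V genes. Of all genes they had 393, 1700, 2416, 1109 and 1656. The interaction fits had 5, 6, 3, 3 and 5 V genes, with 932, 1229, 436, 407 and 1051 of all genes. Both kinds of fit tested 75 to 78 V genes among 15487 to 15620 genes. The test of 6 female groups had 9 of 82 V genes, with 1271 of 15562 genes.

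Under that test of 6 groups in male mice, Igkv15-103 had the smallest p of the V genes. It had 36, 11 and 14 counts in male saline mice and 20, 24 and 10 in oil mice. It had 32, 71 and 61 in 9500 mice, 47, 18 and 46 in 9500+oil mice and 37, 17 and 25 in 9527+oil mice. In 9527 mice 10, 11 and 12 it had 53, 13 and 490. Mouse 12 thus stood at 25.3 CPM where the next mouse had 2.67, and the other 2 mice of its group lay among the rest. The adjusted p was 0.212 with edgeR. DESeq2 gave 0.0149, the only call of a V gene in any setting, in a test that called 3.94% of all genes. Without mouse 12 DESeq2 called no V gene, with no adjusted p for 21 of 81.

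In the comparison of male 9527 mice with saline the log2 fold change of Igkv15-103 was 3.25 ± 1.17 (SE), with an adjusted p of 0.268 (edgeR). Without mouse 12 it was 0.73. Ighv1-80, the V gene next by p, had a log2 fold change of -1.52 ± 0.72 and an adjusted p of 0.404. Its saline mice held 25, 72 and 11 counts against 19, 10 and 9, and without saline mouse 2 the value was -0.43.

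In male 9500 mice the smallest p among V genes was that of Igkv5-43. It had 25, 22 and 13 counts in saline mice and 48, 103 and 41 in 9500 mice, which do not overlap in CPM. The log2 fold change was 1.21 ± 0.48 with an adjusted p of 0.782 (edgeR), and 0.63 without 9500 mouse 8. In the 9500+oil mice, with 26, 40 and 49 counts, it was 0.91 ± 0.41 with an adjusted p of 0.542. Igkv5-45 is 98.56% identical to Igkv5-43, so reads may be split between them. Igkv14-126 followed in the 9500 comparison with a log2 fold change of 2.24 ± 0.92 and an adjusted p of 0.782. That value was 1.18 without 9500 mouse 9, which had 165 of the row's counts where the other 2 mice of its group had 48 and 30.

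Igkv4-68 had the smallest p of the V genes against saline, in male 9527+oil mice. Its counts were 6, 1 and 5 in saline mice and 22, 14 and 22 in 9527+oil mice, with no overlap in CPM. The log2 fold change was 2.12 ± 0.57, the unadjusted p 0.00546 and the adjusted p 0.885 (edgeR). In the same comparison Ighv1-26 had a log2 fold change of -0.96 ± 0.41 and an adjusted p of 0.885, and -0.49 without saline mouse 1. Igkv6-17 and Igkv12-41 led in male oil mice with log2 fold changes of 1.13 ± 0.50 and 1.31 ± 0.60, and in 9500+oil mice Igkv1-110 had 1.68 ± 0.82. The adjusted p-values of these 3 were 0.617, 0.628 and 0.553 (edgeR). Without 9500+oil mouse 14 the value of Igkv1-110 was 0.31. Without saline mouse 1 the values of the 3 genes were larger, at 1.72, 2.17 and 2.61.

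In female mice Igkv8-24 had the smallest p of the V genes in all 5 comparisons, which share their saline mice. Its level was 1.91, 5.08 and 3.49 CPM in saline mice. Oil mice had 1.10, 0.86 and 1.29 CPM, 9500 mice 0.35, 1.39 and 0.63, and 9527 mice 1.94, 0.00 and 0.42. The 9500+oil mice had 1.30, 0.73 and 1.62 CPM and the 9527+oil mice 1.60, 0.69 and 0.81, so only 9527 mouse 10 reached the lowest saline mouse. The log2 fold changes ran from -2.14 for 9500 to -1.57 for 9500+oil, with adjusted p-values from 0.914 to 1.00 (edgeR). For 9527+oil the value was -1.77 ± 0.61, and -1.74 without saline mouse 3. Without the 5 doubted libraries the values for Igkv8-24 were -1.84 for oil, -1.80 for 9500, -1.56 for 9527, -1.27 for 9500+oil and -1.74 for 9527+oil. Without 9527 mouse 10 alone the value for 9527 was -3.91. Saline mouse 2, the highest female mouse at 5.08 CPM, stayed in all of these refits.

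In male mice Igkv8-24 was one of the 3 V genes with the lowest dispersion, at 0.21 to 0.87 CPM. The interaction of sex and treatment for Igkv8-24 was largest under 9527 in log2 terms, at 2.46 ± 1.43, with an adjusted p of 1.00 (edgeR), and it was 1.92 without the 5 doubted libraries, where the one under oil, at 2.25, was larger. Other V genes named by their p in female mice were Ighv1-18 (-1.63 ± 0.75 for oil and -2.64 ± 1.45 for 9500), Ighv11-2 (1.83 ± 1.23 for 9527), Ighv2-9-1 (2.42 ± 1.76 for 9500+oil) and Igkv10-96 (-0.76 ± 0.41 for 9527+oil). None had an adjusted p under 0.914 (edgeR). Without the 5 doubted libraries the fold changes were -1.20 and -1.98 for Ighv1-18, 1.25 for Ighv11-2, 2.56 for Ighv2-9-1 and -0.71 for Igkv10-96. The value of Ighv2-9-1 rested on 9500+oil mouse 15 and was 0.09 without it, and that of Ighv1-18 for 9500 was -4.71 without 9500 mouse 8.

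**Figure D4:**
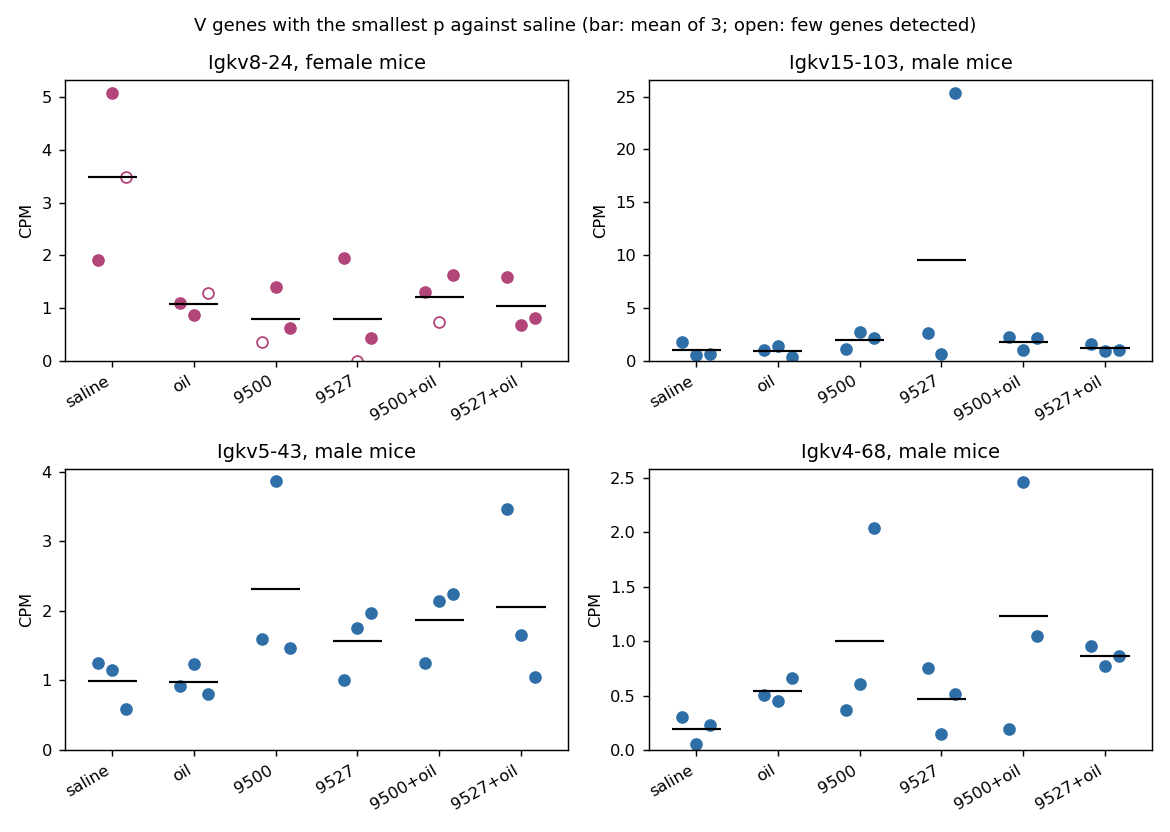
Level of 4 V genes in CPM per mouse by treatment group, with bars at the mean of 3 mice and open circles for female libraries with few genes detected. Igkv15-103 was at 25.3 CPM in 1 of 3 male 9527 mice, whereas the 3 male mice given 9527+oil lay above all saline mice for Igkv4-68.

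The V genes whose treated and saline mice did not overlap were counted beside the share of all genes that did not. These V genes were chosen after their values were seen. In male 9500 mice 4 of 58 V genes were higher in every treated mouse (6.9%, against 6.27% of all genes), namely Igkv5-43, Igkv12-41, Ighv6-3 and Igkv2-137, and none was lower (5.42% of all genes). In male 9527 mice Ighv6-3 alone was higher of 50 (2%, against 10.7%) and none lower (9.44%). In male oil mice 0 of 47 were higher (7.28% of all genes) and Ighv1-22 was lower (2.13%, against 5.56%). In 9500+oil mice Igkv8-24 was higher of 45 (2.22%, against 7.68%) and none lower (7.78%). In 9527+oil mice Igkv4-68 and Ighv6-3 were higher (4.26%, against 5.74%) and Ighv1-26 and Iglv1 lower (4.26%, against 6.28%).

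In female mice the counts rested on saline mouse 3 as well. Ighv1-19 and Igkv8-30 were higher in every oil mouse (3.51%, against 2.66%) and Igkv8-24 and Ighv1-18 lower (3.51%, against 1.13%). In 9500 mice Igkv4-59 and Igkv6-23 were higher (3.77%, against 3.56%) and Igkv8-24 and Ighv1-18 lower (3.77%, against 2.86%). In 9527 mice Ighv1-19 and Ighv11-2 were higher (3.39%, against 2.85%) and none lower (1.22%). In 9500+oil mice Igkv3-4 was higher (1.82%, against 1.54%) and Igkv8-24 lower (1.82%, against 0.798%). In 9527+oil mice none was higher (10.9%) and Igkv8-24, Ighv1-18 and Igkv10-96 were lower (5.26%, against 7.14%). Without the 5 doubted libraries 2 saline mice were set against 2 treated mice, or 3 for 9527+oil, so more genes did not overlap. The V genes higher in every treated mouse were then 2 for oil (3.51%, against 11.7% of all genes), 6 for 9500 (11.3%, against 21.6%), 2 for 9527 (3.39%, against 16.8%), 3 for 9500+oil (5.45%, against 10.8%) and 0 for 9527+oil (15.2% of all genes). Those lower were 13 for oil (22.8%, against 11%), 13 for 9500 (24.5%, against 22.8%), 8 for 9527 (13.6%, against 16.1%), 4 for 9500+oil (7.27%, against 12.4%) and 7 for 9527+oil (12.3%, against 16%). Igkv8-24 was lower under oil, 9500, 9500+oil and 9527+oil in both counts.

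The spread of V genes between mice of a group was wide. The median dispersion of the 69 V genes tested in male mice was 0.255, a coefficient of variation of 50.5% beyond counting error, against 0.0198 or 14.1% over all genes. Genes with few counts vary more, and the dispersion that edgeR's trend gives at the abundance of the V genes had a median of 0.227, with 40 of the 69 above it. The 9 constant region genes tested had a median of 0.129. In female mice the V median was 0.727 and that of the trend 0.747, with 42 of 82 above it, and without the 5 libraries the V median was 0.233. In male mice Iglv1 (0.0633), Ighv6-3 (0.0795) and Igkv8-24 (0.0805) had the lowest dispersions and Ighv7-1 (1.36), Ighv2-3 (1.13) and Ighv1-54 (1.00) the highest. In female mice Igkv10-96 (0.290), Igkv16-104 (0.334) and Ighv1-72 (0.337) were lowest and Ighv1-11 (2.13), Ighv2-9-1 (2.09) and Ighv3-4 (1.97) highest. Of these, Ighv3-4 had 120 counts in saline mouse 2 and 127 in 9500+oil mouse 15 but 4 in saline mouse 1, and at most 3 in any male mouse.

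Single mice held V genes far above all others of their sex. With at least 40 counts and at least 3 times the CPM of the next mouse as the criterion, which was chosen after the values were seen, 10 V genes in 4 male mice and 5 V genes in 4 female mice stood out. The first condition was met by 36 V genes in male and 46 in female mice. Of the V genes just outside it, Ighv2-2 was at 2.88 CPM in female oil mouse 4 where the next mouse had 0.99. Ighv6-6 was at 2.09 CPM in male oil mouse 6 where the next had 0.74. In saline mice, Igkv14-111 was at 3.84 CPM in male mouse 2 where the next mouse had 1.43. Ighv1-11 was at 3.81 CPM in female saline mouse 1 where the next had 1.44. No saline mouse met the criterion.

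Male 9527 mouse 12 held Igkv15-103 with 490 counts, Ighv7-1 with 118 and Ighv2-6 with 55. Igkv15-103 alone took 25.3% of the V counts of that mouse, and Ighv7-1 took 6.10%. In the other 17 male mice Ighv7-1 had at most 14 counts and Ighv2-6 at most 17. The heavy chain of IgA, Igha, was at 87.8 CPM in mouse 12, the highest of the male mice, which began at 33.9 CPM. Igj, the joining chain of IgA and IgM polymers, was at 20.1 CPM there against a male median of 7.21. Its summed level of 18 B cell genes, 330.0 CPM, was below the male median of 499.7 CPM.

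Male 9500 mouse 9 held 4 such genes. Ighv12-3 had 208 counts there and at most 8 elsewhere, and Igkv1-115 had 200 and none in the other 17 male mice. Igkv14-126 had 165 counts and Igkv4-91 had 99, where the other male mice had at most 48 and 16. Ighv11-2 had 69 counts in the same mouse and at most 20 elsewhere, just short of the criterion in CPM, and Ighv11-1 differs from it at 4 positions. Ighv11-2 with Igkv14-126 and Ighv12-3 with Igkv4-91 are the heavy and light chain pairs known from B-1a cells that bind phosphatidylcholine. Igj was at 20.7 CPM in this mouse, the highest male value, and Igha at 49.4 CPM.

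Male 9500+oil mouse 13 held Ighv1-18 with 162 counts, where the other male mice had at most 26. Its Ighg2b, the heavy chain of IgG2b, was at 32.4 CPM against a male median of 2.88. Mouse 14 of that group held Igkv1-110 with 144 counts and Ighv1-63 with 49, and its Ighg1 was at 8.19 CPM against a male median of 1.26. No kappa V gene met the criterion in mouse 13. Igkv9-120 was highest there of the male mice, with 69 counts and 3.30 CPM, where the next mouse had 1.54.

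In female mice, 9527 mouse 10 held Igkv1-110 with 414 counts, 10.9% of its V counts, where the next mouse by CPM had 66. The same mouse had 177 counts of Ighv7-3 and at most 18 counts stood in any other female mouse, and its Igha level of 53.4 CPM was the highest of the female mice. 9500+oil mouse 15 held Ighv2-9-1 with 68 counts. The other 2 female mice belong to the doubted libraries. Oil mouse 6 held Ighv11-2 with 91 counts and Ighv5-17 with 53, and its Ighg2b was at 21.2 CPM and its Igj at 34.3 CPM, against female medians of 1.75 and 5.05. 9500 mouse 7 held Igkv3-10 with 53 counts.

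**Figure D5:**
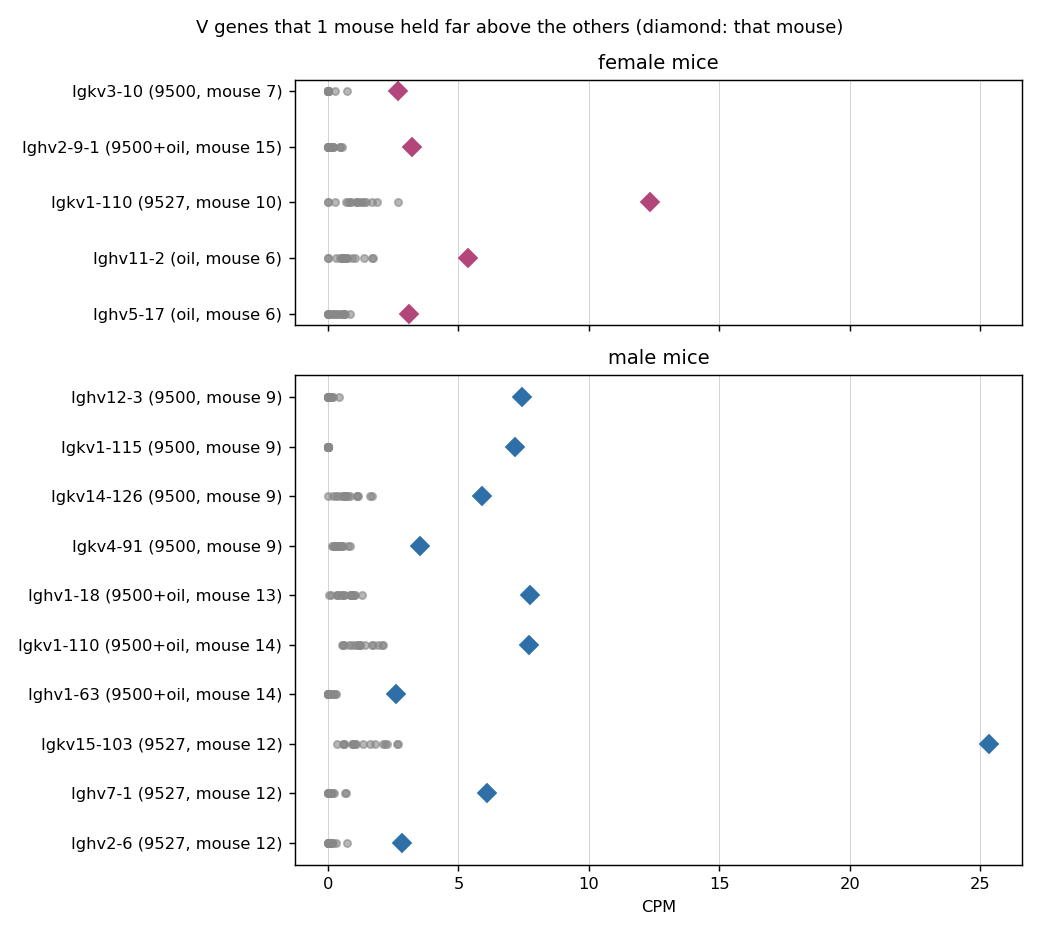
Level in CPM of the 5 female and 10 male V genes that 1 mouse held at least 3 times above the next, with that mouse as a diamond and the other 17 mice of the sex as grey points. The labels give the treatment and number of the mouse, and Igkv15-103 in male 9527 mouse 12 lies at 25.3 CPM.

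The share of the V counts that the leading V gene of a mouse took was between 3.49% and 25.3% of the V counts in male mice with a median of 4.67%, and the leading gene of saline mouse 2, Igkv14-111 with 73 counts, took 9.02%. In the 13 female mice it was 4.42% to 10.9%. The shares of up to 17.4% in saline mouse 3 (Igkv8-24, 30 counts) rest on 172 V counts in all, with 15.7% for Igkv14-126 and 15.1% for Igkv10-96.

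Other genes of the antibody pathway were examined as lists of known genes. The constant region genes, which encode the parts of the heavy and light chains that follow the V region, had 9 of 13 listed genes tested in most comparisons and 0 called in either direction. In male 9527 mice their smallest p was that of Igha, with a log2 fold change of 0.81 ± 0.18 and an adjusted p of 0.117 (edgeR), before Ighg1 with -2.63 ± 0.80 and 0.199. Without 9527 mouse 12 the value of Igha was 0.58, and without saline mouse 2 that of Ighg1 was -1.68. DESeq2 called both in that comparison, with adjusted p-values of 0.00183 and 0.0190, where it called 3.93% of all genes. The summed constant level ran from 400.6 to 921.7 CPM in male mice. Of 18 B cell genes and of 13 or 14 plasma cell genes tested, 0 were called in each of the 10 comparisons within a sex. In male 9527 mice the plasma cell genes Sdc1, a surface proteoglycan, and Igj had log2 fold changes of 0.34 ± 0.09 and 0.86 ± 0.33 with adjusted p-values of 0.157 and 0.301 (edgeR). The value of Igj was 0.40 without 9527 mouse 12. DESeq2 called Sdc1 alone of the plasma cell genes, with an adjusted p of 0.00850, and no B cell gene in any of the 10 comparisons. Of 8 germinal centre and hypermutation genes, 0 were called, and the proliferation marker Mki67 came nearest in male 9527 mice with 1.64 ± 0.29 and an adjusted p of 0.0694 (edgeR). DESeq2 called Mki67 in male 9527 mice, in oil mice (0.89, adjusted p of 0.0111) and in 9500 mice (1.00, adjusted p of 0.00976). It also called Ung, which removes uracil from DNA, in 9527 mice (1.92, adjusted p of 0.00579). The shares of all genes it called were 3.93% for 9527, 1.25% for oil and 0.324% for 9500.

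Of the 7 V(D)J recombination genes tested, 0 were called, and Xrcc6, a DNA end-binding protein of the joining step, had the smallest p in male 9527 mice with 0.44 ± 0.15 and an adjusted p of 0.235 (edgeR). No gene was called among 9 to 12 genes of antibody transport and B lineage support, 14 T cell genes, 3 thymocyte genes, 6 or 7 genes of lymph node stroma and 10 lung genes with edgeR. DESeq2 called 2 transport and support genes in male oil mice, Pigr and Tnfsf13, where it called 1.25% of all genes. In male 9527 mice it called 1 gene of the lymph node list, Fcgbp, and 3 lung genes, Hopx and Cldn5 lower and Col1a1 higher. The share of all genes it called there was 3.93%. It called no T cell, thymocyte or V(D)J recombination gene in the 10 comparisons, and no gene of any list in female mice. Some list genes had no adjusted p with DESeq2 and could not be called. In male 9500+oil mice these were 1 T cell, 1 V(D)J recombination and 1 plasma cell gene. The constant region, germinal centre, transport and lymph node lists had 2 each there. In the other comparisons at most 1 gene of a list had none. Of 9 neutrophil and macrophage genes, 1 was called in 1 comparison, Cd68, a lysosomal protein of macrophages, in male 9527 mice (log2 fold change 0.83 ± 0.11, adjusted p of 0.0468, edgeR), where 0.114% of all genes were called. Its adjusted p was from 0.0222 to 0.221 when 1 mouse was left out, and over 0.05 in 5 of those 6 fits. DESeq2 called Cd68 in 4 male comparisons, all but 9500, Marco for oil, 9527 and 9527+oil, and Mrc1 for 9527. Beside the shares above, it called 0.343% of all genes for male 9500+oil and 0.167% for male 9527+oil. The median log2 fold change of these 9 genes was larger in other male groups, at 1.00 for oil and 1.36 for 9527+oil, than in 9527 mice, at 0.15. In male mice 9 had a fold change above 0 for oil, 9 for 9500, 5 for 9527, 7 for 9500+oil and 8 for 9527+oil, and 7, 1, 4, 2 and 7 had an unadjusted p under 0.05, beside 8.21%, 6.35%, 13.7%, 9.22% and 5.54% of all genes. In female mice 1, 5, 4, 1 and 1 were above 0, and 0, 1, 1, 0 and 1 had such a p, beside 0.108%, 0.364%, 0.267%, 0.155% and 1.1% of all genes.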

How the data were processed

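RNA of 36 left lungs was quantified by the authors with Salmon against GRCm38 transcripts (150-base reads) and combined with tximport into estimated counts, deposited without normalization in a table for each sex. The methods describe rows of transcript identifiers, whereas the deposited rows carry gene symbols, and how they were summed is not given in the sources used here. Salmon and GRCm38 are also in the submitters' processing notes. The index holds germline V genes, so reads across joined segments or with many mutations may be missed or shared between copies. The estimated counts were already whole. The lowest sum of a gene was 10 counts, and 4 rows whose name occurs more than once were left out of each table.

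Samples were grouped by the treatment, sex and mouse number of the labels. Members and gene lists were chosen with earlier results of these data known. CPM used TMM library sizes over the 18 mice of a table, and levels were compared between genes per kb of GENCODE M21 transcript. Log2 ratios of sums were differences of mean log2 summed CPM. edgeR 4.0.16 (R 4.3.3, TMM, filterByExpr, Benjamini-Hochberg) tested 22 comparisons: each treatment against saline within each sex and over both sexes with a sex term, the 6 groups of each sex, and sex by treatment. A standard error is the log2 fold change divided by the square root of F. The code was tested on simulated data, with less spread between mice than the V genes had and with changes placed only in genes of higher counts. That test does not show whether a changed V gene would be found. Summed V levels carry no test. The p-values set a difference between groups against the spread between mice of a group.

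Named V genes were the 10 with the highest mean CPM in each table, those with an adjusted p under 0.05, the 2 with the smallest p in each comparison within a sex, the 3 with the highest share of the V counts of 1 mouse, the lambda genes and the 3 highest and 3 lowest dispersions. In each list they were genes that passed and the 2 with the smallest p. Others were chosen after their values were seen. Alternatives were DESeq2 1.42.0, other normalizations and filters, all 18 mice in one fit, no sex term, a replicate block and libraries left out.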

Additional observations from a re-analysis of the deposited data

How the results depend on the processing

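The count of V genes called was 0 in all 22 comparisons under edgeR and moved under 1 alternative, DESeq2 on the 6 groups of male mice, where it was 1 (Igkv15-103). This was 0 without male 9527 mouse 12, an alternative chosen after the data were seen. Under edgeR the count was also 0 in each comparison when each of its mice was left out in turn (lowest 0, highest 0), which was not done with DESeq2 for other mice. Mouse numbers are shared between the sexes only, and nothing in the labels pairs those mice. With the number as a replicate block in the interaction fits, 0 V genes were called, as without it.

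The median dispersion of V genes moved with the libraries and the filter. In female mice it was 0.277 with at least 10 counts in every mouse (2 V genes), 0.373 without the 4 libraries of high mitochondrial share and 0.233 without the 5 libraries with few genes detected, the last chosen after the data were seen. In male mice it was 0.125 with at least 10 counts in every mouse (13 V genes). For named V genes 248 refits kept the direction of the fold change. Few V reads per mouse limit every value: genes with under about 10 counts are known only roughly, and 3 mice per group leave 4 residual degrees of freedom.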
